A study of Homo sapiens with 9 samples.

Results

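TXNIP, the arrestin-domain genes ARRDC1 to ARRDC4 and the MondoA network genes MLXIP, MLXIPL and MLX were followed in HCC827, a human lung adenocarcinoma cell line that carries mutant EGFR. The 8 genes were chosen by symbol, as 5 alpha-arrestins and 3 transcription factors of glucose sensing. All 8 were among the 60675 genes in the count table, and all 8 passed the filter on low counts, as did 13264 genes in all. The set was drawn up knowing that TXNIP and ARRDC4 were higher with both CBX5 hairpins, so differences of the 8 genes from the control are given as descriptions without p-values.

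The groups were cells with hairpin G1 against CBX5, cells with hairpin G7 against CBX5, and cells with a non-silencing control hairpin (NS), each stably expressed and each in 3 libraries that the design text calls biological replicates. CBX5 encodes HP1 alpha, a protein of heterochromatin. All cells grew in DMEM with serum, and the labels give neither the glucose content of the medium nor whether the libraries of a hairpin came from separate transductions. If they did not, the p-values below measure only the spread between these libraries. The targeted gene CBX5 (chromosome 12, 54230940 to 54280133) averaged 141.9 ± 0.595 CPM (counts scaled to library size) with G1, 203.2 ± 1.54 with G7 and 369.2 ± 8.11 in control cells (SD, n = 3 each). Library totals ran from 12701561 to 22372353 counts, and mitochondrially encoded genes took 13.4% to 19.8% of them, the highest share being in G7 replicate 3, which stood apart from the other G7 libraries. The epithelial markers summed to 14670 to 14930 CPM with G1, 12580 to 13190 with G7 and 10720 to 11630 in control cells, with KRT8 at the top. Of those 7 markers, 6 were called higher and 1 lower with G1 (30.4% and 28.7% of all genes tested), and 3 higher and none lower with G7 (13.1% and 9.64%). The lower one was EGFR, a call lost without any one of control replicates 1 and 2 and G1 replicates 1 and 2.

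MondoA, the product of MLXIP, and ChREBP, the product of MLXIPL, are transcription factors that bind DNA as dimers with MLX. Phosphorylated glucose drives them to the nucleus and onto carbohydrate response elements, which are pairs of short E-box-like sequences held apart by a fixed spacer. TXNIP and ARRDC4 are their best-known targets, and both proteins restrain glucose uptake, which closes a feedback loop. TXNIP also binds and inhibits thioredoxin. Alpha-arrestins are adaptors that bring ubiquitin ligases of the NEDD4 family to proteins of the membrane.

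The promoters of TXNIP and ARRDC4 are shown because these genes moved most and because the TXNIP window holds a tandem E-box-like motif. The sequences are those of RefSeq (GRCh38.p14), read 5′ to 3′ on the strand of the gene, from base -250 to base -31 relative to the annotated start. They lie at chr1:145996610-145996829 (minus strand) for TXNIP and at chr15:97960453-97960672 (plus strand) for ARRDC4. Capitals mark matches, on either strand, to the E-box CACGTG, to the tandem motif (CACGNG, 5 bases of any kind, CACGNG) and to the CCAAT box, which reads ATTGG on the other strand.
TXNIP: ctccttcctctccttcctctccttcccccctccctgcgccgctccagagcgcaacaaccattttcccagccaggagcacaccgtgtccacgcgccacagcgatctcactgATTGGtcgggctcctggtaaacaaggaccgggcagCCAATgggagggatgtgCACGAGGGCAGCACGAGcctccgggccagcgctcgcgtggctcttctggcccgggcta
ARRDC4: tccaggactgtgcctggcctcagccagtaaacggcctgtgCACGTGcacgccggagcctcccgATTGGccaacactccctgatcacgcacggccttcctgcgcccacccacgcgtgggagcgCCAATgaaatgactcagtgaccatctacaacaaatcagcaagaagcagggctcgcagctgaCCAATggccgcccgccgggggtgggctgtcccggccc
The TXNIP promoter held 1 match to the 17-letter tandem motif, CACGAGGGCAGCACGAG, from base -88 to base -72. Only 20 of 35116 promoter windows of 300 bases in the table held that motif, or 0.0570%. The ARRDC4 promoter held no match to this strict tandem motif, and looser forms of it were not searched for. It held the single E-box CACGTG at base -210, which 7.26% of windows hold. The MLX promoter held the same E-box at base -50, and the windows of the other members held neither motif. The CCAAT box occurred 2 times in the TXNIP window and 3 times in the ARRDC4 window, against at least once in 34.6% of windows. These matches describe letters, and no binding was measured.

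TXNIP and ARRDC4 were both far higher with each hairpin than in control cells, and more so with G1. G1 also left less CBX5 RNA than G7, and whether that bears on the larger rise was not tested. TXNIP (ENSG00000265972, GRCh38 chromosome 1, 145992435 to 145996600) stood at 323.7, 326.5 and 320.2 CPM in the G1 libraries, at 168.0, 170.4 and 163.1 CPM in the G7 libraries and at 42.9, 45.8 and 40.0 CPM in the control libraries. The 3 groups were fully separated, and the spread within each was small beside the steps between them. With G1 its level was 7.55-fold that of control cells, a log2 fold change of 2.92 ± 0.050 (SE), and with G7 it was 3.90-fold, a log2 fold change of 1.96 ± 0.050. Ranked by fold change among the 13264 genes tested, it stood 5th with G1 and 3rd with G7. Without G7 replicate 3 the G7 value was 1.98.

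ARRDC4 (ENSG00000140450, chromosome 15, 97960698 to 97973838), the alpha-arrestin most closely tied to TXNIP in the control of glucose uptake, had the same order of groups at a much lower level. It stood at 15.3, 13.9 and 14.2 CPM in the G1 libraries, at 7.14, 7.45 and 7.13 CPM in the G7 libraries and at 3.40, 3.64 and 3.09 CPM in the control libraries. No library of one group reached the range of another. The raw counts behind these values were 45 to 53 in the control libraries and 221 to 263 with G1. With G1 the level was 4.28-fold that of control cells (log2 2.098 ± 0.11, SE), which ranked 14th among all genes tested. With G7 it was 2.14-fold (log2 1.10 ± 0.12), which ranked 21st. Both comparisons use the same 3 control libraries.

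The step between the hairpins was alike for both genes. G1 minus G7 was 0.95 ± 0.044 (SE) on the log2 scale for TXNIP and 0.998 ± 0.090 for ARRDC4. Against control, TXNIP had the larger fold change with each hairpin. The log2 ratio of TXNIP to ARRDC4, each scaled to exon length, was 4.57 to 4.73 in the G1 libraries and 4.68 to 4.73 in the G7 libraries, against 3.82 to 3.86 in the control libraries. Across all 9 libraries, which fall into 3 groups, the log2 CPM of the pair had a Pearson r of 0.98.

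**Figure D1:**
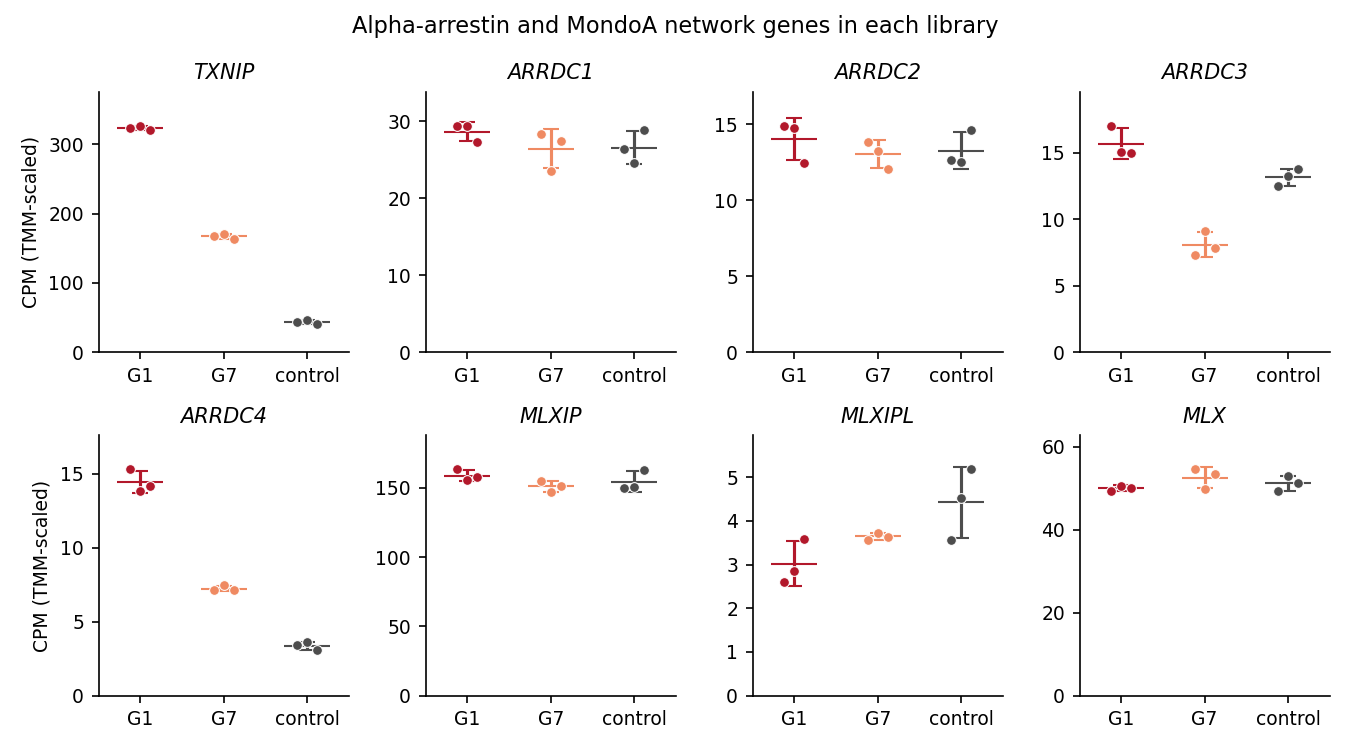
Each panel plots 1 gene, with TMM-scaled CPM on the vertical axis from 0 and the groups G1, G7 and control on the horizontal axis. Points are libraries, horizontal lines are means and bars are SD over 3 libraries. TXNIP and ARRDC4 step down from G1 to G7 to control without overlap, ARRDC3 is lowest with G7, and MLXIP and MLX are level.

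Among tested genes that sample handling can induce, the heat shock genes were highest with G1. The immediate early genes were lowest with G1, except for JUN. JUN averaged 36.64 CPM with G1, 31.75 with G7 and 27.79 in control cells. The 12 listed genes of both kinds, most of whose RNA was from heat shock genes, summed to 868 to 880.2 CPM with G1, 746.5 to 751.9 with G7 and 646 to 658.6 in control cells. Of the 9 tested, 5 were higher and 4 lower with G1, where 30.4% and 28.7% of all genes tested were. With G7, 5 were higher and none lower, where 13.1% and 9.64% of all genes tested were. The 5 higher with G7 became 3 in 10 of the 16 alternatives. Among these were the ones leaving out 1 of control replicates 1 and 2, G1 replicate 1, and G7 replicates 1 and 2. The chaperone gene HSPH1 rose by 0.73 with G1 (adjusted p = 4.37e-11) and by 0.28 with G7 (adjusted p = 1.23e-04), while the immediate early factor EGR1 averaged 19.1 CPM in G1 cells, 36.1 CPM in G7 cells and 37.4 CPM in control cells and fell by 0.98 with G1 (adjusted p = 2.74e-09; all p-values are from edgeR, adjusted by Benjamini-Hochberg over all genes tested). FOSB, JUNB and DUSP1 were listed at 0 in all 9 libraries, so they added nothing to the sums. Whether a listed 0, for these genes or for CD68 below, means no RNA or reads that were not counted was not tested. Markers of blood, endothelial and stromal cells summed to 70.7 to 74.8 CPM with G1, 86.2 to 91.1 with G7 and 85.6 to 95.3 in control cells, nearly all of it PECAM1 and COL1A1, and CD68 was listed at 0. Of the 10 such markers 3 were tested, of which PECAM1 was lower with G1 and none was called with G7. The part of handling or of other cells in the values of TXNIP and ARRDC4 was not tested. In bulk RNA, fewer cells that express a gene and less RNA per cell cannot be told apart.

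ARRDC3 lay above control with G1 and below it with G7. ARRDC3 (ENSG00000113369, chromosome 5, 91368724 to 91383359) encodes an adaptor in the trafficking of beta-adrenergic receptors and integrins. It stood at 17.0, 15.1 and 14.9 CPM in the G1 libraries, at 7.32, 9.13 and 7.83 CPM in the G7 libraries and at 12.5, 13.3 and 13.8 CPM in the control libraries. All G1 libraries were above the control range and all G7 libraries below it, though the G1 margin was narrow. On the log2 scale this was 0.25 ± 0.093 (SE) against control for G1 and -0.72 ± 0.10 for G7. The difference between the hairpins, which did not enter the choice of the genes for ARRDC3, was 0.97 ± 0.096 at adjusted p = 2.30e-07. Over 16 alternative analyses the log2 fold change of ARRDC3 against control ranged from 0.162 to 0.285 with G1 and from -0.798 to -0.647 with G7. The difference between the hairpins was called in 16 of 16. Its antisense neighbour ARRDC3-AS1, which shares 145 exon bases with it, had 85 counts over all 9 libraries.

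The remaining alpha-arrestins stayed near their control level. ARRDC1 (ENSG00000197070, chromosome 9, 137605654 to 137615360), which drives the budding of small vesicles from the plasma membrane, ranged from 27.3 to 29.4 CPM with G1, from 23.5 to 28.4 with G7 and from 24.5 to 28.9 in control cells. ARRDC2 (ENSG00000105643, chromosome 19, 18001132 to 18014102) ranged from 12.4 to 14.9 CPM with G1, from 12.1 to 13.8 with G7 and from 12.5 to 14.6 in control cells. All groups overlapped for both genes. Log2 fold changes against control were 0.11 ± 0.079 (SE) with G1 and -0.004 ± 0.078 with G7 for ARRDC1, and 0.080 ± 0.098 and -0.029 ± 0.097 for ARRDC2. G1 minus G7 was 0.11 for each, at adjusted p = 0.248 for ARRDC1 and 0.362 for ARRDC2. ARRDC1-AS1, which overlaps ARRDC1 on the opposite strand by 29 exon bases, was lower with G1 than in control cells by a log2 change of -0.36 (adjusted p = 0.0201), a call lost without control replicate 3 or G1 replicate 2.

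Scaled to exon length, the alpha-arrestin RNA of these cells was mostly TXNIP with either CBX5 hairpin. The 5 genes summed to 106.5 ± 1.56 CPM per kb with G1, 59.3 ± 1.01 with G7 and 25.1 ± 0.292 in control cells (SD, n = 3 each). TXNIP made up 83.8% ± 0.617 of that sum with G1, 77.8% ± 0.818 with G7 and 47.1% ± 3.16 in control cells. ARRDC1 was second in every library and made up 7.04% with G1, 11.7% with G7 and 27.7% in control cells, while its own level did not separate the groups. ARRDC4 kept a share of 3.33%, 3.00% and 3.30% in the same order of groups. In control cells the order of the per-length levels was TXNIP, ARRDC1, ARRDC2, ARRDC3 and ARRDC4, with ARRDC2 and ARRDC3 differing by less than the SD of ARRDC2. With G1, ARRDC4, ARRDC3 and ARRDC2 lay close together at 3.55 ± 0.185, 3.18 ± 0.234 and 3.02 ± 0.295 CPM per kb.

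**Figure D2:**
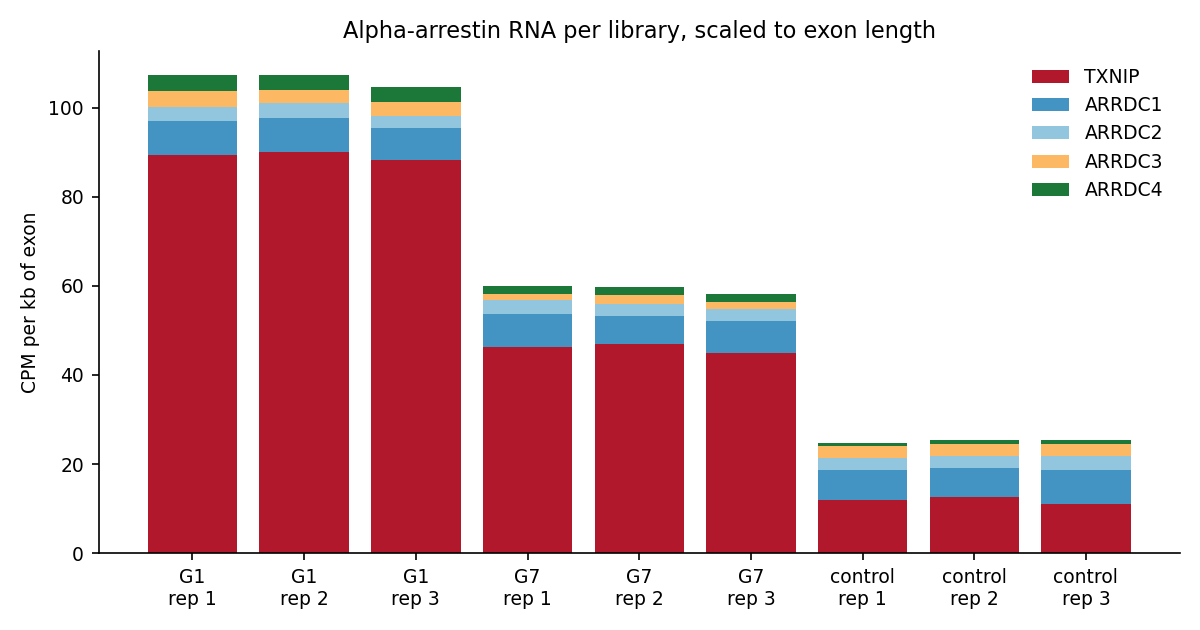
Each bar is 1 library, and its height is the summed TMM-scaled CPM per kb of exon of the 5 alpha-arrestins, coloured by gene. The TXNIP segment sets the height of the bars, from 83.2% to 84.4% of the sum with G1 and from 43.7% to 49.9% in control cells.

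The transcription factors MLXIP and MLX stayed near their control level. MLXIP (ENSG00000175727, chromosome 12, 122078722 to 122147347), which encodes MondoA, stood at 163.2, 155.5 and 157.6 CPM in the G1 libraries, at 154.8, 147.2 and 151.2 CPM in the G7 libraries and at 149.5, 150.8 and 163.0 CPM in the control libraries. MLX (ENSG00000108788, chromosome 17, 42567068 to 42573239), the dimer partner, stood at 49.4, 50.7 and 50.2 CPM with G1, at 54.6, 49.8 and 53.5 CPM with G7 and at 49.3, 53.0 and 51.4 CPM in control cells. For both genes each hairpin group overlapped the control group. Log2 fold changes were 0.039 ± 0.045 (SE) with G1 and -0.033 ± 0.045 with G7 for MLXIP, and -0.034 ± 0.054 and 0.039 ± 0.053 for MLX. Between the hairpins, MLXIP differed by 0.071 (adjusted p = 0.203) and MLX by -0.073 (adjusted p = 0.269, or 0.0453 at -0.13 with upper quartile scaling). Per kb of exon the RNAs of MLXIP and MLX were close, in a ratio of 0.971 ± 0.0365 with G1, 0.880 ± 0.0222 with G7 and 0.924 ± 0.0504 in control cells. MLX shares 770 exon bases with PSMC3IP on the opposite strand, and the strand setting of the counting is not given in the sources used here, so its counts are uncertain.

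MLXIPL (ENSG00000009950, chromosome 7, 73593194 to 73624543), which encodes ChREBP, the form that predominates in liver and fat, was the scarcest of the 3 factors. It stood at 2.61, 2.85 and 3.59 CPM in the G1 libraries, at 3.57, 3.73 and 3.63 CPM in the G7 libraries and at 3.55, 4.53 and 5.18 CPM in the control libraries. The control libraries spread widely, and their lowest value lay inside the G1 range and below every G7 value. On the log2 scale the difference from control was -0.58 ± 0.17 (SE) for G1 and -0.30 ± 0.16 for G7. Without control replicate 3 the difference with G1 was -0.44. G1 minus G7 was -0.28 ± 0.16 at adjusted p = 0.181. Per kb of exon, MLXIPL lay at 0.626 ± 0.107 CPM in G1 cells, 0.756 ± 0.0164 in G7 cells and 0.918 ± 0.170 in control cells. MLXIP lay at 11.4, 10.9 and 11.1 CPM per kb in the same order of groups. The summed per-length level of the 3 factors was 23.8 ± 0.114 CPM per kb with G1, 24.0 ± 0.839 with G7 and 24.1 ± 0.907 in control cells.

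Counted over the 8 genes, 3 were called higher and 1 lower with G1, where 59.1% of all genes tested were called, 30.4% higher and 28.7% lower. With G7, 2 were called higher and 1 lower, against 22.7% of all genes, 13.1% higher and 9.64% lower. These counts include TXNIP and ARRDC4, whose values led to the choice of the genes, so nothing is read from them. Of the other 6 genes, 1 was called higher and 1 lower with G1, both calls being lost in some alternatives. With G7, none was called higher and 1 lower. Nothing is read from these counts against control either. Between the hairpins 3 of all 8 genes were called higher with G1 and none lower, against 44.9% of all genes, 23.3% higher and 21.6% lower. Among the 6 genes other than TXNIP and ARRDC4, 1 was called higher and none lower. The libraries of the groups did not overlap for 3 of the 8 genes between G1 and control, where this held for 64.1% of all genes, for 3 between G7 and control (35.3%) and for 4 between G1 and G7 (53.6%). The genes called between the hairpins were TXNIP, ARRDC4 and ARRDC3, with log2 differences between 0.95 and 0.998. Their number was under the share of all genes called, so nothing is read from it. With G7, ARRDC3 lay below control, while TXNIP and ARRDC4 lay above it. The median log2 fold change of the 8 genes was 0.094 with G1 and -0.016 with G7, beside -0.011 and 0.009 over all genes tested.

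**Figure D3:**
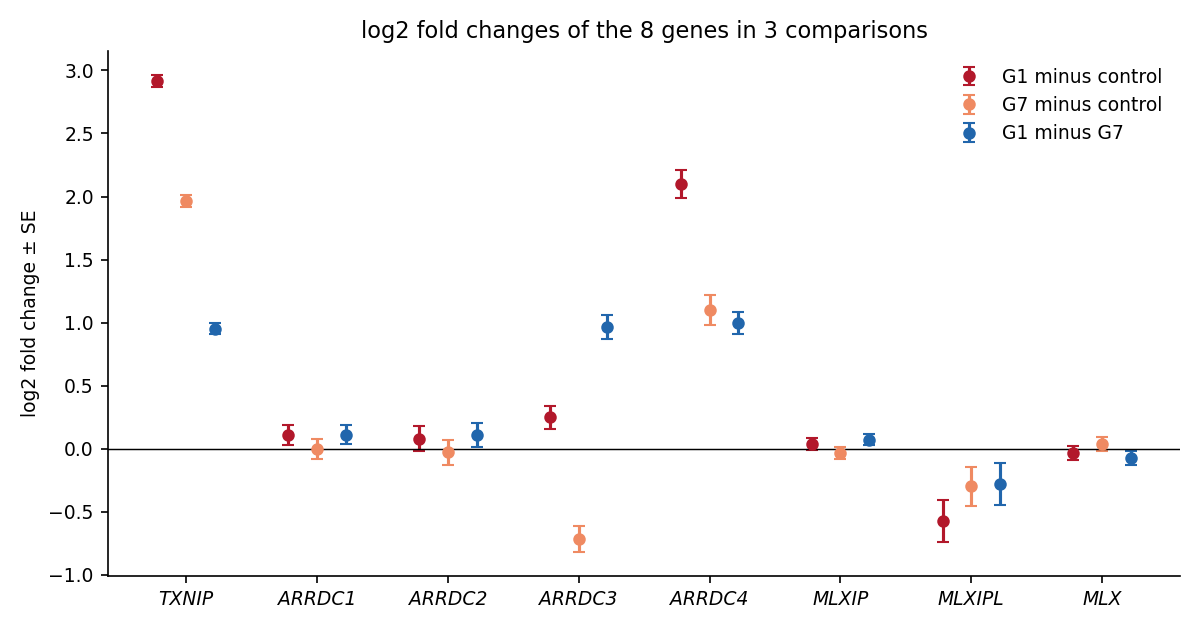
Points are log2 fold changes from the fit of all genes and bars are SE, for 3 comparisons of each gene. TXNIP and ARRDC4 lie far above 0 with both hairpins, ARRDC3 lies at 0.25 with G1 and at -0.72 with G7, and ARRDC1, ARRDC2, MLXIP and MLX lie near 0.

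Other genes described as targets of MondoA or ChREBP were called in both directions. Of 17 tested, 9 were higher and 6 lower with G1, where 30.4% and 28.7% of all genes were, and 8 were higher and 2 lower with G7, where 13.1% and 9.64% of all genes were, with median log2 changes of 0.28 and 0.14. KLF10, a zinc finger repressor and an established target of both factors, rose by 0.59 with G1 (adjusted p = 1.53e-07) and by 0.38 with G7 (adjusted p = 2.25e-04); it was singled out after its values were seen. LDHA, which makes lactate, rose to 2948 ± 104 CPM with G1 and 1734 ± 68.1 with G7, against 1235 ± 40.4 in control cells (SD, n = 3 each), log2 changes of 1.25 (adjusted p = 2.93e-13) and 0.49 (adjusted p = 1.32e-06). PKM, a pyruvate kinase gene, rose by 0.91 with G1 and 0.45 with G7 (adjusted p = 4.16e-12 and 9.51e-07).

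The other rises in that list were mostly of fatty acid synthesis enzymes, which are also targets of sterol regulatory element-binding proteins. ELOVL6, a fatty acid elongase, rose by 1.16 with G1 and 0.26 with G7 (adjusted p = 2.16e-12 and 0.00246). SCD, the main desaturase, rose by 1.02 with G1 and had 0.14 with G7, where its call was lost without any one of control replicate 1, G1 replicate 1, G7 replicate 1 and G7 replicate 2. The falls included glycolytic genes that MondoA has been reported to activate. HK2, a hexokinase, fell to 72.9 ± 2.09 CPM with G1 and 90.2 ± 4.92 with G7, against 102.9 ± 0.881 in control cells (SD, n = 3 each), log2 changes of -0.50 and -0.19 (adjusted p = 7.62e-08 and 0.00744). PFKFB3, which makes an activator of glycolysis, changed by -0.36 with G1 and -0.33 with G7 (adjusted p = 1.08e-05 and 1.79e-04). GPD1, PPP1R3C and RGS16, also called lower with G1, lay under 1 CPM in every group. The GPD1 call was lost without any one of control replicates 2 and 3 and G1 replicates 1 and 2, and the PPP1R3C call without control replicate 3 or any one G1 replicate.

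Genes of glucose entry were called in both directions. Of 16 tested, 7 were higher and 3 lower with G1, a total near the 59.1% of all genes called, and 6 were higher and 3 lower with G7, where 22.7% of all genes were called. The median log2 changes were 0.19 and 0.14. The glucose transporter gene SLC2A1, whose protein TXNIP and ARRDC4 remove from the membrane, was singled out after its values were seen. It averaged 162.3 ± 2.35 CPM with G1 and 156.3 ± 5.00 with G7, against 141.2 ± 4.97 in control cells (SD, n = 3 each), log2 changes of 0.20 (adjusted p = 6.17e-04) and 0.15 (adjusted p = 0.0191), the G7 call being lost with upper quartile scaling and without any one of control replicates 1 and 2, G1 replicate 1 and G7 replicate 1. SLC2A3, a high-affinity transporter gene, fell with G7 by 0.47 (adjusted p = 1.88e-07) and had 0.012 with G1 (adjusted p = 0.805); the hairpins differed by 0.48 (adjusted p = 1.71e-08). HKDC1, a hexokinase-like gene, rose by 1.09 with G1 and 0.46 with G7 (adjusted p = 4.49e-11 and 4.79e-05). GPI, which draws phosphorylated glucose into glycolysis, rose by 0.74 with G1 and by 0.17 with G7, where the call was lost without control replicate 2.

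Of 15 tested genes of the thioredoxin system, whose central protein TXNIP inhibits, 10 were higher and none lower with G1, where 30.4% of all genes were higher, and 5 were not called. With G7, 3 were higher and none lower, a share near the 13.1% of all genes that were higher. The median log2 changes were 0.36 and 0.13. TXN, which encodes thioredoxin, averaged 488.7 ± 27.3 CPM with G1 and 337.9 ± 16.3 with G7, against 276.9 ± 15.8 in control cells (SD, n = 3 each), log2 changes of 0.82 and 0.29 (adjusted p = 2.00e-10 and 6.01e-04). TXNRD1, the cytosolic thioredoxin reductase, rose by 0.62 with G1 and 0.26 with G7 (adjusted p = 2.69e-09 and 5.94e-04). PRDX1, a peroxidase that thioredoxin recharges, rose by 0.84 and 0.36 (adjusted p = 1.01e-09 and 2.55e-04). Those were the 3 genes called with G7, and without G7 replicate 3 the count was 6. The step in TXNIP was larger than that in TXN in both comparisons, and on the per-length scale TXN stood at 427.9 ± 23.9 CPM per kb with G1 and 242.5 ± 13.8 in control cells, above TXNIP at 89.2 ± 0.872 and 11.8 ± 0.796.

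In the extended network, 9 partners of MLX and MAX were tested. With G1, none was higher and 5 were lower, against 30.4% and 28.7% of all genes tested. With G7, 1 was higher and 1 lower, against 13.1% and 9.64% of all genes tested. The count of 5 became 8 with upper quartile scaling, 2 with DESeq2 or without G1 replicate 2, and 3 without control replicate 3 or G1 replicate 3. MNT, a repressor that binds MLX and MAX, changed by -0.50 with G1 (adjusted p = 1.65e-05) and had -0.098 with G7 (adjusted p = 0.365). MXI1, a MAX-binding repressor, changed by -0.18 with G1 (adjusted p = 0.0101), a call lost without G1 replicate 3. MYCL, an activator, changed by -0.41 (adjusted p = 0.0196), a call lost without control replicate 2 or G1 replicate 2. MXD1, another partner of MLX, had 0.15 with G7, a call kept in only 4 of 16 alternatives. MGA, which binds MAX, had -0.14 with G7, a call lost without any one of control replicates 1 and 2 and G7 replicates 1 and 2.

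**Figure D4:**
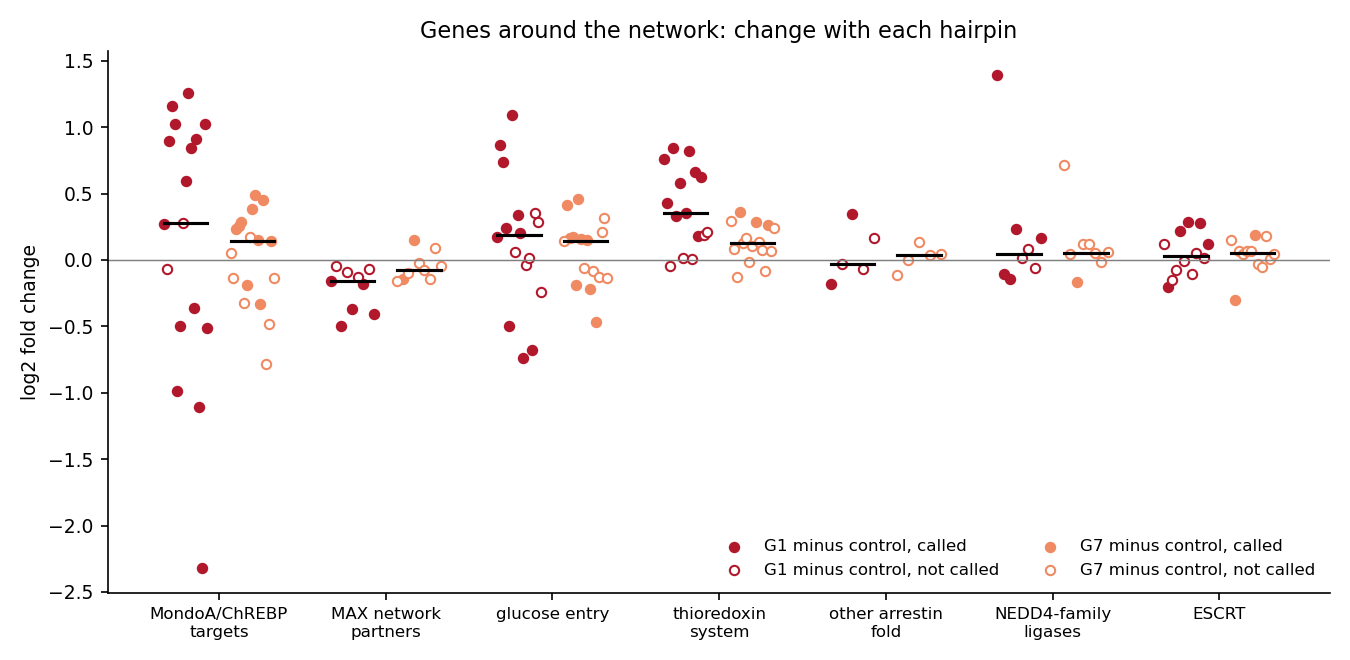
Each point is 1 tested gene of a list around the network, with its log2 fold change against control on the vertical axis, G1 in red on the left and G7 in orange on the right of each list. Filled points were called, open points were not, and black lines are medians. The thioredoxin genes have 10 filled points with G1, all above 0, while the target list spreads from 1.25 for LDHA to below -2 for the barely detected RGS16.

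Of 8 tested ligases of the NEDD4 family, which alpha-arrestins recruit, 3 were higher and 2 lower with G1, and none was higher and 1 lower with G7, near or under the 59.1% and 22.7% of all genes called. NEDD4L rose by 0.23 with G1 (adjusted p = 8.14e-04) and WWP2 by 0.17 (adjusted p = 0.00797, a call lost with upper quartile scaling). NEDD4 changed by -0.15 with G1 and -0.17 with G7 (adjusted p = 0.0224 and 0.0250). Both calls were lost without control replicate 2 or 3, the G1 call also without G1 replicate 2, and the G7 call also without G7 replicate 1 or 2. HECW2 was barely detected and was called higher with G1 at 0.878 CPM, against 0.335 CPM in control cells, a log2 change of 1.39 (adjusted p = 0.00660), a call lost without G1 replicate 2. Of 12 ESCRT genes, which serve vesicle budding, 4 were higher and 1 lower with G1, and 1 was higher and 1 lower with G7, both totals under the shares of all genes called, or 2 higher and 3 lower with G1 under upper quartile scaling. Without control replicate 1, 2 were higher and none lower with G1. PDCD6IP, which encodes ALIX, rose by 0.22 with G1 (adjusted p = 2.05e-04) and UBAP1, an ESCRT-I subunit, by 0.28 (adjusted p = 4.44e-04). UBAP1 had 0.19 with G7 (adjusted p = 0.0291), a call kept in only 8 of 16 alternatives. The lower one was CHMP4C, at -0.20 with G1 (adjusted p = 0.0494) and -0.30 with G7 (adjusted p = 0.0150). Its call was kept in 7 of 16 alternatives with G1 and in 14 with G7. Of 5 tested arrestin-fold genes outside the 8, the retromer subunit gene VPS26A rose by 0.35 with G1 (adjusted p = 5.83e-06) and the beta-arrestin gene ARRB1 changed by -0.18 (adjusted p = 0.00325), and no other was called with either hairpin. The alpha-arrestin gene ARRDC5 had at most 2 counts in a library and was not tested.

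The genes whose log2 CPM followed TXNIP most closely over the 9 libraries, out of 11085 other genes with a mean of at least 2 CPM, were IGFBP4 (Pearson r = 0.998), PHLDB2 (0.998), AKR1B10 (0.994), NSD2 (0.993) and TSPAN3 (0.993). Their own log2 changes were smaller than that of TXNIP. PHLDB2 had 0.81 with G1 and 0.58 with G7, and IGFBP4 had 0.48 and 0.32. The genes closest to ARRDC4 were KIAA0930 (r = 0.996), ATAD2 (0.996), SNRPA1 (0.996), UBASH3B (0.996) and BUB1 (0.995). Likeness of this kind was common, since an r over 0.95 was reached by 376 genes for TXNIP and by 834 for ARRDC4, and the libraries form only 3 groups.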

How the data were processed

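Polyadenylated RNA was sequenced in 9 strand-specific libraries, 3 per group, per the labels' protocols. The authors deposited unnormalized counts of reads for each Ensembl gene. GRCh38 (hg38), HTSeq 0.6.0 and TopHat2 2.1.0 are named by the submitters' processing notes, while the annotation release and strand setting were not given in the sources used here. Of 60675 rows, 57055 matched GENCODE 29, which gave symbols, coordinates and exon lengths.

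The deposited counts were filtered with filterByExpr, TMM-scaled and fitted with edgeR 4.0.16 in R 4.3.3 (glmQLFit, 1 mean per group, all 9 libraries, common dispersion 0.00217). Contrasts were tested two-sided with glmQLFTest, and calls were made at an adjusted p under 0.05 (Benjamini-Hochberg) over the 13264 genes tested. The procedure was tested on simulated counts. CPM are TMM-scaled. A per-length level is CPM per kb of merged GENCODE 29 exons. Likeness used log2 CPM with a prior count of 2. Replicates differed by more than sampling noise (chi-square per degree of freedom 1.46 to 22.6), so none was merged.

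The 8 genes and the 10 gene lists were chosen with earlier results of these data known, and some lists overlap (HK2 is in both the target list and the glucose list). Genes named from a list were the 3 with the smallest p in each comparison with control, the others being named for a stated reason; 1 gene that met this rule is not reported here. The 16 alternatives were RLE and upper quartile scaling, no filter, DESeq2 1.42.0, a replicate block, only the groups compared, no mitochondrially encoded genes, and each of 9 libraries left out. The lowest raw count of any of the 8 genes in a library was 44.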

Additional observations from a re-analysis of the deposited data

Results flagged for a closer look

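ARRDC3 was singled out because its change differed between the hairpins by a test of the difference itself. G1 minus G7 was 0.965 on the log2 scale (SE 0.096, Benjamini-Hochberg adjusted p = 2.30e-07 from edgeR), with all 3 G1 libraries above and all 3 G7 libraries below the control libraries. The difference lay between 0.898 and 1.05 in the 16 alternatives and was 0.949 without G7 replicate 3.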

How the results depend on the processing

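The number of genes called stayed within 1.5 times its value in all 16 alternatives for each comparison, as did the number of the 8 genes called. Upper quartile scaling moved the split, to 3066 higher and 4815 lower with G1 (4031 and 3806 with TMM), 1398 and 1603 with G7 (1735 and 1279), and 2346 and 3751 between the hairpins (3092 and 2870). The log2 fold change of TXNIP ranged from 2.83 to 2.97 with G1 and from 1.91 to 2.02 with G7, and that of ARRDC4 from 2.01 to 2.16 and from 1.03 to 1.16. ARRDC3 lost its call with G1 under upper quartile scaling (0.16), DESeq2 (0.25), and without control replicate 1 (0.22), control replicate 2 (0.25) or G1 replicate 1 (0.19); the cause was not tested. Of 960 list counts under alternatives, 99 moved by over 1.5 times, mostly counts of few genes. Same-numbered libraries deviated together in only 2 of 9 pairs (r over 0.1; range -0.0763 to 0.199), so the numbers were not taken to pair the samples. With the replicate number as a block, 7909, 3117 and 6069 genes were called for G1, G7 and G1 minus G7, beside 7837, 3014 and 5962 without it, and 5 thioredoxin genes were called higher with G7, beside 3. With DESeq2, 6931, 2374 and 5009 genes were called. Depth limits MLXIPL and ARRDC4 most, at 44 to 87 and 45 to 263 counts per library.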

Other observations

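The tandem motif seen in the TXNIP promoter was looked up in the other genes whose promoter windows hold it, a list made after the data had been seen. Of 20 such genes, 12 besides TXNIP were tested, and 4 were higher and 5 lower with G1 (30.4% and 28.7% of all genes tested), and none was higher and 3 lower with G7 (13.1% and 9.64%). GFPT1 and RAN are named for the smallest p with G1, and MYL5 for the largest fall. GFPT1, the first enzyme of hexosamine synthesis from glucose, fell by 0.88 on the log2 scale with G1 (adjusted p = 1.31e-11) and by 0.48 with G7 (adjusted p = 5.86e-07, edgeR). MYL5 had -1.12 with G1 (adjusted p = 7.15e-04) and -0.64 with G7 (adjusted p = 0.0449, edgeR). Whether the motif bears on any of these changes was not tested. RAN, the GTPase of nuclear transport, rose by 0.60 with G1 (adjusted p = 4.84e-08) and had 0.15 with G7 (adjusted p = 0.0645). The median log2 change of the 12 was -0.13 with G1 and -0.024 with G7.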
